A study of Taeniopygia guttata with 39 samples.

Results

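The transcripts described here were those with their highest group means in both groups of birds labelled as singing, in HVC of adult female canaries given testosterone. Each array row was scored as the lower of its mean levels at 7 d and 14 d of testosterone minus the highest of its mean levels in controls and at 1 h, 3 h, 8 h and 3 d. The 150 rows with the highest score were taken, and 3 of them, rows of CRHBP, EGR1 and FOS, were left out, which gave 147 members of 26061 rows. The differences between singing and non-singing groups chose the members, so they are given as a description, with no test.

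HVC is a forebrain nucleus of the song system that drives learned song through a motor pathway to the vocal organ. Female canaries sing little, and testosterone makes them sing and enlarges HVC. In the brain, aromatase turns testosterone into estradiol and a steroid reductase turns it into dihydrotestosterone.

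The study measured total RNA of HVC, cut from sections of 39 brains, on Affymetrix arrays, with 1 array for each bird. Every bird was an adult, non-breeding female housed with 9 h of light and 15 h of dark per day and given a subcutaneous Silastic implant, 7 mm long. Control birds (5) had an implant with nothing in it, and the others one with testosterone, for a sampling after 1 h (6 birds), 3 h (5 birds), 8 h (5 birds), 3 d (6 birds), 7 d (6 birds) or 14 d (6 birds). The labels call every bird of the 7 d and 14 d groups singing and every other bird non-singing, so song and length of treatment cannot be told apart, and birds that sang without testosterone were not part of the design. As organism the labels give Taeniopygia guttata, the zebra finch, while the design text speaks of canaries. The labels call the birds of a group biological replicates.

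Values below are levels on the log2 scale relative to the median of the same array, so that 0 is the level of the middle row and a difference of 1 is a doubling. The 3 h array of replicate 2 stood apart: its median correlation with the other arrays was 0.886, against 0.963 or more for each of the others. It was not used in the group means or fits, which therefore hold 38 arrays, 12 of singing and 26 of non-singing birds. Bird numbers in the sample titles ran from 741 to 805 for the 1 h, 3 h, 7 d and 14 d groups, from 982 to 995 for controls and from 205 to 414 for the 8 h and 3 d groups. What these ranges stand for is not stated in the labels. Median deposited values of the arrays lay between 7.49 and 7.85 in non-singing groups, between 7.57 and 7.87 at 7 d and between 7.78 and 7.91 at 14 d. The 7 neuron markers measured lay from the 4.78th (UCHL1) to the 98.7th percentile of all rows (SNAP25), and levels of different rows do not give their relative abundance.

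Of the 147 members, 67 rows carried a RefSeq transcript identifier, 74 a zebra finch Ensembl identifier, 5 another Ensembl identifier and 1 a GenBank identifier. A gene was found for 20 of them, 15 with an official symbol: HAS2, NEFM, LTK, ZNF503, HTR2B, EMCN, SRD5A2, VCL, PRUNE1, CCND1, ADRA1A, CRYL1, TPH2, IRF4 and CMPK1. The other 5 matched only a locus name, and 127 were not matched. Over all rows, 2244 of 26061 had an official symbol. The account by gene therefore covers about 1 in 10 members (10.2%), and most of the highest scores belonged to rows without a name.

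The score, a difference on the log2 scale, ran from 0.141 to 1.20 with a median of 0.186. The last rows taken, at ranks 148 to 150, scored 0.142, 0.142 and 0.141, and CMPK1 was the first of these. The first rows not taken, at ranks 151 to 153, scored 0.140, 0.138 and 0.137. The edge of the set was thus no gap in the scores. Both singing means lay above every other group mean in 1917 rows, or 7.36% of all rows.

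The mean of the 2 singing groups exceeded the mean of the 5 non-singing groups by a median of 0.40 over the members (log2 difference, from 0.22 to 1.73), against -0.01 over all rows. In 34 members the difference was 0.5 or more and in 11 it was 1 or more, against 130 and 12 of all rows. In the limma fit over all rows, 22.4% of rows were called higher in the singing groups, 24.3% lower and 46.7% in either direction, at a Benjamini-Hochberg adjusted p under 0.05, and 143 of the 147 members were called higher. The rule used this contrast, and nothing is read from that count.

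**Figure D1:**
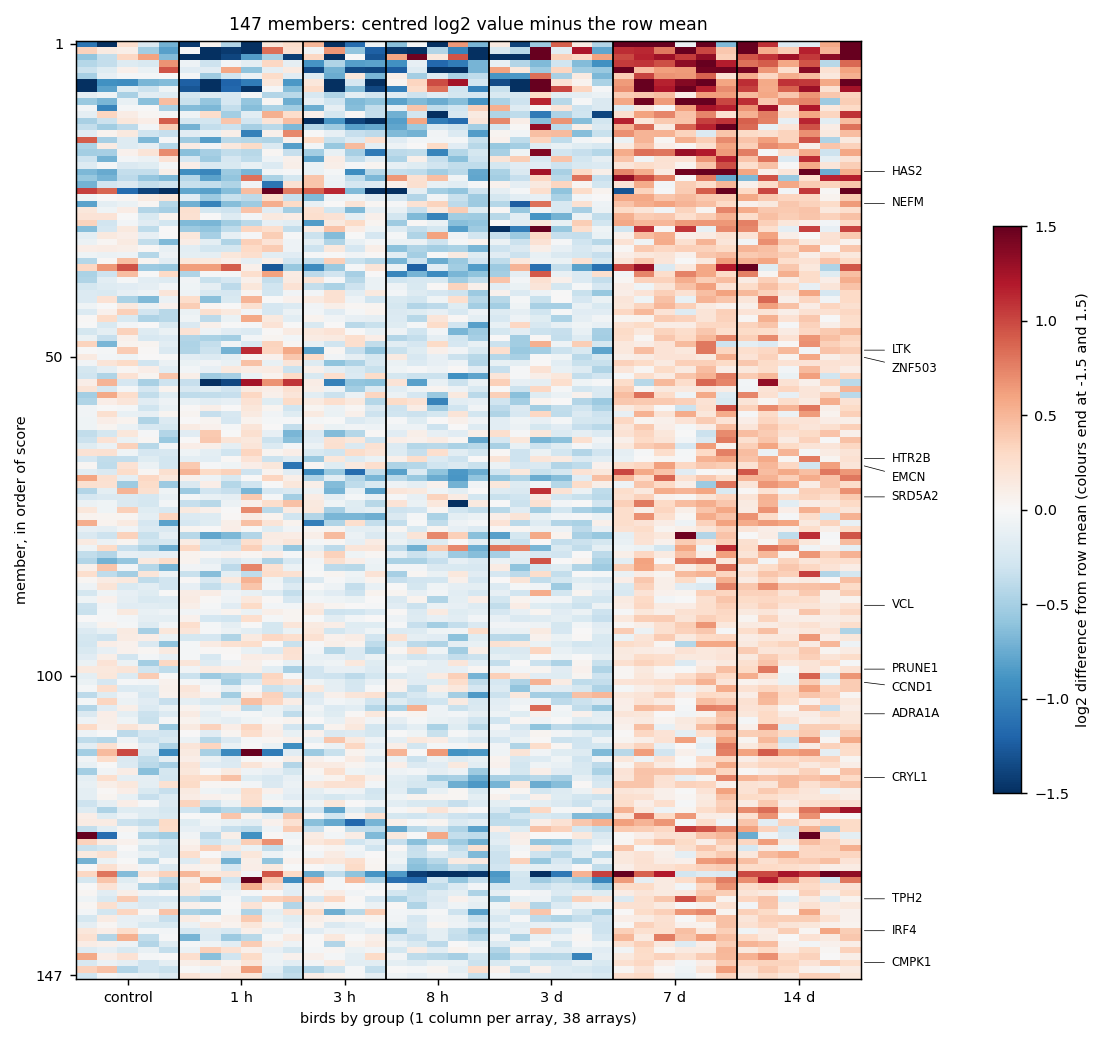
Each line is 1 of the 147 members, ordered by score, and each column 1 of 38 birds, grouped by time after implant. Colour gives the log2 level minus the mean of the row, with the colour scale ending at -1.5 and 1.5. The 7 d and 14 d columns are red in most lines, with the largest differences at the top, and the third of the 3 d columns holds red cells among the leading lines.

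No member separated the birds completely. The share of rows in which every singing bird lay above every non-singing bird was 0.0% of all rows and 0 of 147 members. The closest were ENSTGUT00000001699, XM_002196684 and XM_002189514, in each of which 11 of 12 singing birds lay above all 26 non-singing birds. These 3 were named after their values were seen. In XM_002189514 the lowest singing bird was at 3.43 and the highest non-singing bird also at 3.43, and only that singing bird fell short.

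Averaged over the 147 members, the level of the control birds was -0.29 ± 0.07 (SD, n = 5). The 1 h birds averaged -0.27 ± 0.09 (n = 6), the 3 h birds -0.34 ± 0.05 (n = 4), the 8 h birds -0.42 ± 0.06 (n = 5) and the 3 d birds -0.33 ± 0.10 (n = 6). Levels were 0.17 ± 0.09 for the 7 d birds and 0.15 ± 0.10 for the 14 d birds (n = 6 each). The highest non-singing bird was 3 d replicate 3 at -0.14, and the lowest singing bird was 14 d replicate 5 at 0.00, so the averages did not overlap between singing and non-singing birds, as the selection makes likely. The array left out, 3 h replicate 2, had a member average of 0.07.

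**Figure D2:**
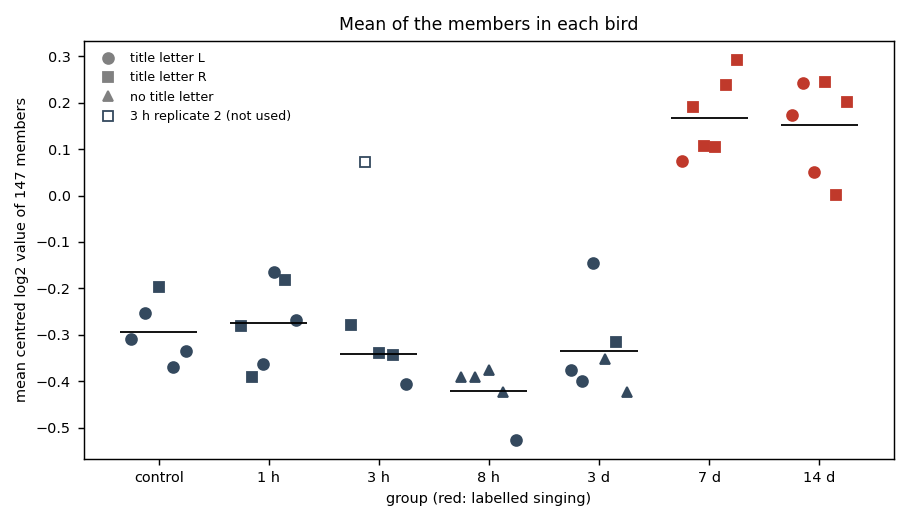
Each point is 1 bird, placed by group on the horizontal axis, with the mean of the 147 members in log2 units relative to the array median on the vertical axis. Red points are birds labelled singing, and horizontal lines are means of the birds used. Circles are birds whose number in the title ends in L, squares those with R and triangles those with no letter. The open point is 3 h replicate 2, which was not used and lies at 0.07, above the other 3 h birds.

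That left-out array is the only one on which the rule did not draw. It lay below the lower singing mean in 69 of 147 members (46.9%), against 37.6% of all rows. The other 3 h arrays, which the rule used, did so in 134 to 141 members, against 8853 to 9634 of all 26061 rows. With it included, 103 of the 147 members were chosen again. Among named members, SRD5A2, NEFM, PRUNE1, ADRA1A and CMPK1 were above the lower singing mean on that array.

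In every member the rule set both singing means above each other group mean, so differences from each range of bird numbers were positive by selection. Singing groups exceeded the 1 h and 3 h groups, which lie in the same number range, by a median of 0.33 over the members, and the 8 h and 3 d groups by 0.44. Over all rows these medians were 0.01 and -0.02. Bird numbers in the titles end in L, R or no letter. Within birds marked L alone the median was 0.37 (over 5 non-singing groups) and within birds marked R alone 0.38 (over 4). All 147 members were higher in the singing birds in each, against 12687 (L) and 12981 (R) of all 26061 rows. These are the same birds that chose the members, so nothing is read from these medians and counts.

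The leading row, XM_002197800, has no gene name here. Its 7 d birds ran from -2.14 through a median of 0.54 to 0.90, and its 14 d birds from -1.69 through -0.65 to 0.97. Controls were at -2.56, -3.92, -1.23, -1.70 and -2.20, and the highest non-singing bird, 3 d replicate 4, was at -0.59. The mean difference of 1.73 on the log2 scale was the largest of all rows, yet 5 of the 12 singing birds lay within the range of the non-singing birds.

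The second row, ENSTGUT00000012872, was at 0.84 to 2.15 at 7 d (median 1.49) and at 0.80 to 2.66 at 14 d (median 1.29). Controls were at 0.78, 0.57, 0.53, -0.08 and -0.38. The 3 d birds reached 1.98 in replicate 3 and the 1 h birds 1.26, so that 2 of 12 singing birds lay above all others. The third row matched only the locus name LOC100221179: its singing birds were tightly placed, from 2.07 to 3.42, while non-singing birds spread from -0.94 to 3.24.

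Among genes of the surface and matrix around cells, HAS2 had the highest score. HAS2 makes hyaluronan, a sugar polymer of the extracellular matrix. Like the roles given below, this one is known from human and mouse. Its controls were at -3.37, -3.45, -3.05, -3.05 and -2.61, and its 8 h birds at -3.05, -3.08, -3.21, -3.10 and -3.46. At 7 d it ran from -2.56 through a median of -1.61 to -0.71, and at 14 d from -3.42 through -2.33 to -1.17. All 7 d birds were above every control, but 14 d replicate 5, at -3.42, was as low as the controls, and 3 d replicate 3, at -1.45, was as high as the singing birds. Mean levels of the 7 d and 14 d groups were -1.61 ± 0.73 and -2.33 ± 0.74 (SD, n = 6 each), against -3.10 ± 0.33 (n = 5) in controls, and the singing groups lay 2.10-fold above the mean of the non-singing groups.

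EMCN encodes endomucin, a glycoprotein on the endothelium of capillaries and veins. Its 8 h birds, at -2.14, -2.11, -1.98, -1.89 and -2.02, were all below its controls' mean of -1.78 ± 0.24 (SD, n = 5). At 7 d it ran from -1.40 through a median of -1.33 to -1.07, and at 14 d from -1.97 through -1.41 to -1.07. The 7 d birds were all above the controls, while 14 d replicates 4 and 6 lay among them and 1 h replicate 1, at -1.29, among the 7 d birds. In dissected tissue, more cells of a type and more RNA per cell cannot be told apart. The 1 other endothelial marker measured, the receptor FLT1, differed by -0.11 between singing and other groups (log2, limma adjusted p = 0.242), and the part of vessels in the EMCN level was not tested.

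VCL encodes vinculin, which links actin to sites of cell adhesion. Control birds had a level of 0.34 ± 0.10 (SD, n = 5), the 8 h birds 0.34 ± 0.08 (n = 5) and the 3 d birds 0.34 ± 0.17 (n = 6). The 1 h birds had 0.54 ± 0.15 (n = 6) and the 3 h birds 0.56 ± 0.06 (n = 4). Singing birds had 0.73 ± 0.11 in the 7 d group and 0.74 ± 0.07 in the 14 d group (n = 6 each). All singing birds, from 0.63 to 0.88, were above every control and every 8 h bird, and they overlapped the 1 h, 3 h and 3 d birds, of which 1 h replicate 4 was highest at 0.81.

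NEFM encodes the medium neurofilament protein, a part of the skeleton of axons. Controls were at 2.50, 3.16, 3.20, 3.33 and 2.88, and singing birds lay between 3.61 and 3.91 at 7 d (median 3.78) and between 3.37 and 3.94 at 14 d (median 3.61). Every singing bird was above every control, but singing birds overlapped the 1 h, 3 h, 8 h and 3 d birds. Of the non-singing birds, 3 d replicate 3 was highest at 4.13, above every singing bird, followed by 1 h replicate 5 at 3.85. The spread among birds was 0.11 at 7 d and 0.20 at 14 d (SD, n = 6 each). Non-singing groups had SDs of 0.33 for the 5 controls, 0.61 for the 1 h birds, 0.13 for the 3 h birds, 0.38 for the 8 h birds and 0.69 for the 3 d birds, so the 3 h group was narrower than the 14 d group. Differences in spread were not tested.

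SRD5A2 encodes the steroid reductase that makes dihydrotestosterone. Its controls were closely placed, at -1.09, -1.05, -1.04, -1.08 and -0.94. At 7 d it ran from -0.80 through a median of -0.62 to -0.48, and at 14 d from -0.64 through -0.54 to -0.31. All 12 singing birds were above all controls, and they overlapped the 1 h, 3 h, 8 h and 3 d groups. The singing groups were 1.30-fold above the mean of the others, with levels of -0.63 ± 0.13 and -0.51 ± 0.12 (SD, n = 6 each) in the 7 d and 14 d groups.

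Of the 5 other measured genes for steroid receptors and enzymes, 1 was called higher and none lower in the singing groups, with a median log2 difference of 0.07 against -0.01 over all rows. The called gene was CYP19A1, which encodes aromatase, with a log2 difference of 0.19 ± 0.05 (SE, limma adjusted p = 0.00424). Its singing birds lay between 0.14 and 0.53 (median 0.23) and its non-singing birds between -0.34 and 0.50 (median 0.06). The estrogen receptor gene ESR1 differed by -0.09 (adjusted p = 0.662) and did not pass.

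2 members belong to serotonin signalling. HTR2B, a serotonin receptor that acts through the Gq pathway, had controls at -3.35, -3.47, -3.46, -3.29 and -3.39. Its 7 d birds ran from -3.21 through -3.08 to -2.52 and its 14 d birds from -3.08 through -2.78 to -2.34. All singing birds were above all controls, though 7 of 12 lay within the range of the 1 h to 3 d birds, which reached -2.84. TPH2, the enzyme that limits serotonin synthesis in neurons, lay below the 5th percentile of the arrays in every group, at -4.56 ± 0.41 (SD, n = 6) at 7 d and -4.97 ± 0.27 (n = 5) in controls. Its values overlapped in all groups, from -5.42 to -4.49 in non-singing and from -5.11 to -3.93 in singing birds.

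ADRA1A, the receptor for noradrenaline that also couples to Gq, had levels of -1.90 ± 0.18 and -1.84 ± 0.08 (SD, n = 6 each) in the singing groups and of -2.19 ± 0.16 (n = 5) in controls. Controls were at -2.25, -1.93, -2.17, -2.36 and -2.23. In 7 of 12 singing birds it lay above all 26 non-singing birds, whose highest was -1.87. LTK, a receptor tyrosine kinase, had levels of -1.11 ± 0.25 and -1.16 ± 0.19 (n = 6 each), against -1.43 ± 0.22 (n = 5) in controls. No singing bird of LTK lay above all non-singing birds, since 1 h replicate 4 was at -0.35.

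Among regulators of transcription and the cell cycle, ZNF503, a zinc finger repressor, had levels of -0.09 ± 0.17 and -0.06 ± 0.20 (SD, n = 6 each) in the singing groups and of -0.30 ± 0.08 (n = 5) in controls. IRF4, a transcription factor studied mostly in lymphocytes, was at -0.40 ± 0.11 and -0.47 ± 0.25 (n = 6 each) in the singing groups. Its controls, at -0.61 ± 0.13 (n = 5), were its highest non-singing group. CCND1, cyclin D1, which drives entry into the cell cycle, was at -1.66 ± 0.13 and -1.83 ± 0.22 (n = 6 each), against -2.02 ± 0.12 (n = 5) in controls. In CCND1 no singing bird lay above 3 d replicate 3, at -1.42. Of the 2 measured markers of dividing cells, BIRC5 was called higher in the singing groups, by 0.46 (log2, limma adjusted p = 0.025). MCM6, at the 1.82nd percentile of all rows against the 54.3rd for BIRC5, was not called. Nothing is read from that at so low a level. The mean level of these 2 markers was -2.435 in controls, -2.42 at 1 h, -2.306 at 3 h, -2.936 at 8 h and -2.681 at 3 d. At 7 d and 14 d it was -2.365 and -2.366, below the 3 h mean. The part of cell division in the CCND1 level was not tested.

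The remaining named members are enzymes of metabolism. CMPK1, a kinase of cytidine and uridine monophosphate, was the named member with most singing birds, 9 of 12, above all non-singing birds. Controls were at -0.50, -0.34, -0.38, -0.55 and -0.41, 7 d birds between -0.29 and 0.13 (median -0.08), and 14 d birds between -0.04 and 0.11 (median 0.07). Every 14 d bird was above every non-singing bird used, of which 1 h replicate 4 was highest at -0.07, and the 7 d birds overlapped the 1 h and 3 h birds. On the array left out, CMPK1 was at 0.49, above every singing bird.

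CRYL1, a dehydrogenase of sugar acids, had levels of 0.54 ± 0.30 and 0.74 ± 0.08 (SD, n = 6 each) in the 7 d and 14 d groups. Controls were at 0.15, 0.55, 0.17, 0.16 and 0.02, and 8 h birds at 0.14, 0.07, -0.22, -0.19 and -0.45. All 14 d birds were above all controls, while 4 of the 6 birds at 7 d, at 0.49, 0.53, 0.17 and 0.34, lay below control replicate 2. PRUNE1, a phosphatase, was at -2.10 ± 0.17 and -1.99 ± 0.29 (n = 6 each) in the singing groups and at -2.27 ± 0.28 (n = 5) in controls, with 5 of 12 singing birds above all non-singing birds.

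**Figure D3:**
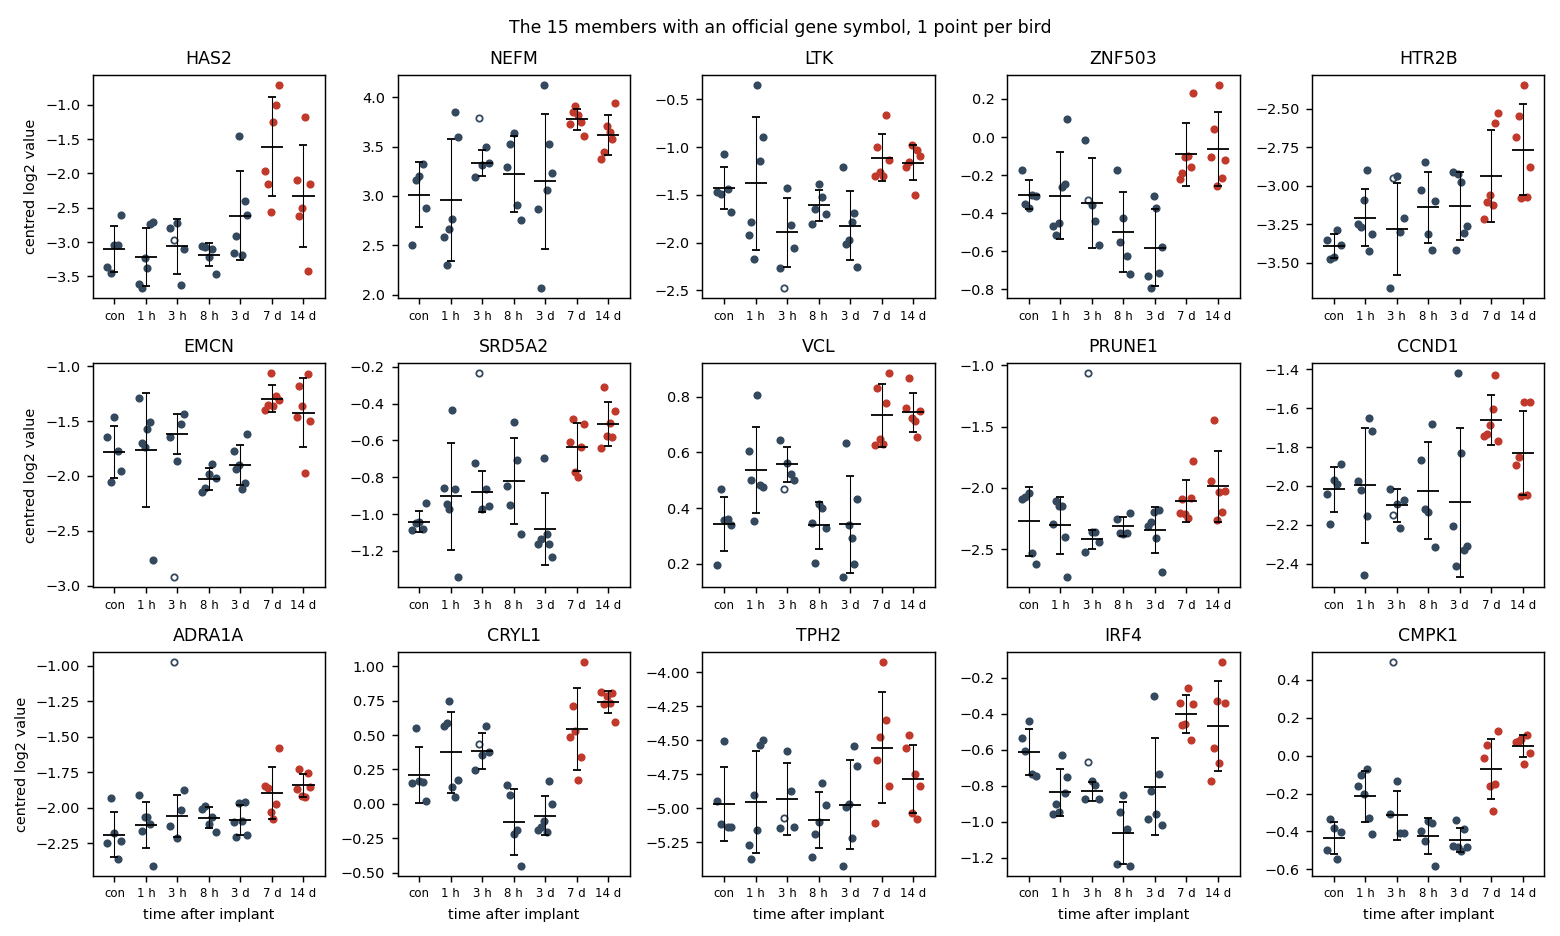
Each panel is 1 of the 15 members with an official symbol, with groups from control (con) to 14 d on the horizontal axis and the log2 level relative to the array median on the vertical axis. Each point is 1 bird, red for singing, and lines give the mean ± 1 SD of the birds used. The open point is 3 h replicate 2, which lies far above the other birds for ADRA1A at -0.98 and CMPK1 at 0.49.

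The difference between 14 d and 7 d did not enter the rule directly, so it was tested with limma over all rows. The rule takes the lower of both means and so favours members that are level between them. 4 of 147 members (2.72%) were called, 2 higher and 2 lower at 14 d, where 21.6% of all rows were called, 11.6% higher and 9.97% lower. At an unadjusted p under 0.05 there were 10 members (6.8%), against 37.2% of all rows. With each bird left out in turn, between 1 (without 14 d replicate 5 or 7 d replicate 4 or 5) and 7 members (without 7 d replicate 6) were called, where 20.8%, 10.2%, 12.1% and 34.9% of all rows were. The median difference over the members was 0.01 on the log2 scale, and 79 of 147 were higher at 14 d. In 106 of 147 members, and in 12 of the 15 named ones, the 95% interval of the difference lay within -0.5 and 0.5, as it did in 60.8% of all rows; since the rule favours level rows, nothing is read from the members' share (72.1%).

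None of the 15 named members passed the test between 14 d and 7 d, and 1 had an unadjusted p under 0.05. That gene was HAS2, lower at 14 d by a log2 difference of -0.72, with an interval from -1.33 to -0.11 (limma adjusted p = 0.0782). NEFM differed by -0.16, with an interval from -0.63 to 0.31 (adjusted p = 0.636), and SRD5A2 by 0.12, with an interval from -0.09 to 0.34 (adjusted p = 0.395). VCL had a narrow interval, from -0.14 to 0.16 around 0.01.

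The 4 members called were rows without a gene name and are named because they are few. ENSTGUT00000012679 had levels of 1.78 ± 0.24 and 1.19 ± 0.52 (SD, n = 6 each) in the 7 d and 14 d groups, a log2 difference of -0.59 (limma adjusted p = 0.0304). Its 14 d birds ran from 0.16 through 1.42 to 1.51 and its 7 d birds from 1.54 through 1.70 to 2.19, so the groups did not overlap. ENSTGUT00000000954 differed by -0.68 (adjusted p = 0.0423). In both rows 14 d replicate 5 was the lowest 14 d bird, at 0.16 and 0.09, and both calls were lost without it. They were also lost without 7 d replicate 4 or 5. Each of these fits left 1 member called, higher at 14 d. No member was called lower at 14 d without centring, after quantile normalisation or with the array median as a covariate. ENSTGUT00000014010 was higher at 14 d by 0.36 (adjusted p = 0.0457), and ENSTGUT00000017012 by 0.61 (adjusted p = 0.00177), from 0.02 ± 0.22 at 7 d to 0.62 ± 0.31 at 14 d (n = 6 each).

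**Figure D4:**
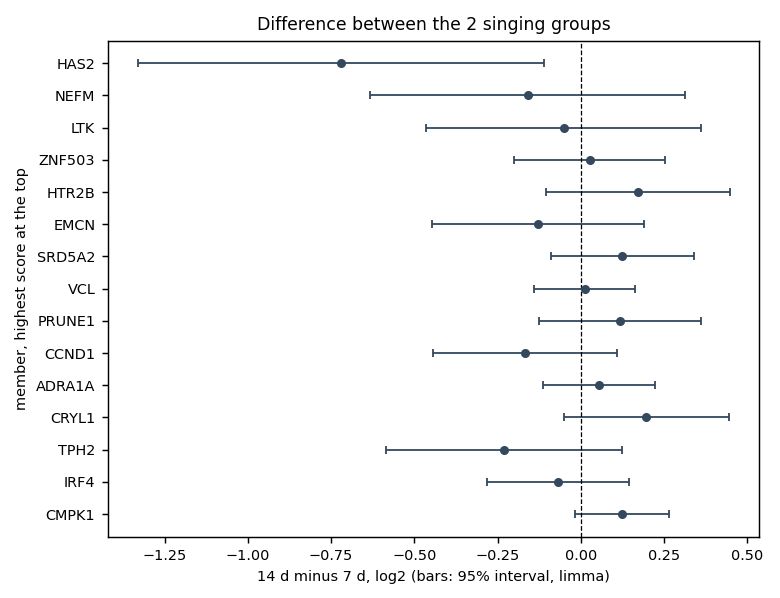
Points give the mean log2 difference of 14 d minus 7 d for the 15 named members, with bars for the 95% interval of limma, and the dashed line marks 0. HAS2 lies farthest from 0, at -0.72, and VCL closest, at 0.01.

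Among the non-singing groups, the rule used only the highest mean, which favours rows with level means there. A moderated F test over 1 h, 3 h, 8 h and 3 d against control called 38 of 147 members (25.9%), where 40.7% of all rows were called. Of the named members, 4 passed: CRYL1 (limma adjusted p = 0.0026), IRF4 (0.0305), VCL (0.0313) and CMPK1 (0.0315). CRYL1 was lowest at 8 h, -0.13 ± 0.24 (SD, n = 5), and at 3 d, -0.09 ± 0.14 (n = 6), and highest at 3 h, 0.39 ± 0.13 (n = 4). IRF4 was lowest at 8 h, -1.06 ± 0.17 (n = 5), and VCL and CMPK1 were highest at 1 h and 3 h. The groups at 8 h and 3 d also had their own range of bird numbers, and the part of that range in these levels was not tested. Birds with no title letter occurred only at 8 h (4 of 5) and 3 d (2 of 6), so a letter term cannot be fully told apart from these groups. With the title letter as a term in the fit, 13 members (8.84%) and 18.9% of all rows passed, and the calls of VCL, IRF4 and CMPK1 were lost. They were also lost without single birds: VCL without 1 h replicate 1 or 4 or 3 h replicate 1 or 3, IRF4 without control replicate 1 or 3 or 8 h replicate 1 or 5, and CMPK1 without 1 h replicate 1, 2, 3 or 4.

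At 3 d, the last time before the singing groups, no member was called higher than in controls. The rule subtracted the highest non-singing mean, 3 d among them, which works against rows raised at 3 d. Nothing is therefore read from the lack of higher calls. 3 of 147 (2.04%) were called in limma, all lower at 3 d, where 2.67% of all rows were called in either direction, 1.23% higher and 1.44% lower. These 3 rows without a gene name were XM_002189514 (log2 difference -0.49, adjusted p = 0.0193), ENSTGUT00000008671 (-0.59, adjusted p = 0.0296) and ENSTGUT00000004837 (-0.64, adjusted p = 0.0123). With each bird left out in turn, between 0 (without control replicate 1) and 5 members (without 3 d replicate 2 or 5) were called, where 1.2%, 3.06% and 3.17% of all rows were. No named member passed, 2 had an unadjusted p under 0.05, and HAS2 differed by 0.49, with an interval from -0.16 to 1.13 (adjusted p = 0.465). The highest non-singing mean was that of the 1 h group in 52 members (35.4%, against 25.1% of all rows), 3 h in 38 (25.9%, against 17.4%), 3 d in 24 (16.3%, against 13.9%), control in 21 (14.3%, against 19.4%) and 8 h in 12 (8.16%, against 24.2%).

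Single birds stood out across members. 3 d replicate 3 was the highest non-singing bird in 27 members (18.4%), against 5.38% of all rows, and in 9 of the leading 20. It was at -1.45 in HAS2, 4.13 in NEFM and 3.24 in LOC100221179, each as high as singing birds, and at -2.02 in the leading row XM_002197800 it was not. 1 h replicate 4 was the highest non-singing bird in 35 members (23.8%), against 19.0% of all rows. Of the singing birds, 7 d replicate 4 was the lowest in 34 members (23.1%), against 15.9% of all rows, 14 d replicate 5 in 26 (17.7%), against 6.01%, and 7 d replicate 1 in 23 (15.6%), against 5.79%. Without 3 d replicate 3, 136 of the 147 members were chosen again.

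Within groups, members moved together only weakly. Over the deviations of the 38 birds from their group means, the median correlation between 2 members was 0.08 (quartiles -0.08 and 0.25, 10731 pairs), against 0.00 among every 10th row of the arrays. 32 pairs of members (0.298%) correlated above 0.7, against 0.728% of pairs among every 10th row. The closest pair was XM_002193055 with ENSTGUT00000009228 at 0.93, and the closest named member to another was HAS2 with ENSTGUT00000012919 at 0.78. These values share the 38 arrays, and 2 rows may stand for 1 gene. The leading 20 members had a median within-group SD of 0.42, the other 127 of 0.23 and all rows of 0.21. Members were neither bright nor dim as a set, with a median level above 50.6% of all rows, 23 below the 20th and 22 above the 80th percentile. The named members were dimmer: 8 of 15 were among the dimmest 25% of rows, while 114 of all 147 members were not. These 8 were HAS2, at the 11.9th percentile, LTK, HTR2B, EMCN, PRUNE1, CCND1, ADRA1A and TPH2.

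Genes of the same pathways that were not members were called in both directions. The calls are of the mean of both singing groups. Group means were compared for 11 genes called higher, which were CYP19A1 and those named below except CLDN11. Of these 11, SCG3 and IGF2 had both singing means above all other group means, and the other 9 did not. Of the 19 named as lower, JUN, ADAMTS20, MMP16, GRM5 and GRIA1 had both singing means below all others. ADAMTS20, GRM5 and IGF2 kept their calls in every alternative run, and the other 27 of these 30 genes lost theirs in at least 1. For extracellular matrix genes other than HAS2, 0 of 7 were called higher and 2 lower in the singing groups (limma, adjusted p under 0.05), with a median of -0.17. The lower ones were the proteases ADAMTS20 (log2 difference -0.97 ± 0.11, SE, adjusted p = 9.45e-08) and MMP16 (-0.44, adjusted p = 0.00013). ADAMTS20 was at -1.63 to -0.41 in singing birds (median -1.06) and at -1.06 to 0.84 in non-singing birds (median -0.15), so that the birds overlapped at their edges.

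For axon genes other than NEFM, 1 of 5 was called higher and 2 lower, with a median of -0.17. The ephrin gene EFNA5 was higher by 0.25 (limma adjusted p = 0.00656), and its receptor gene EPHA7 (-0.26, adjusted p = 0.00647) and the growth cone gene GAP43 (-0.17, adjusted p = 0.0168) were lower. All 3 calls were lost with the title letter as a term and when the array median was a covariate, and those of EPHA7 and GAP43 also without centring. Glutamate receptor genes were lower in 5 of 5, led by GRM5 (-0.65 ± 0.08, SE, adjusted p = 4.82e-07) and GRIN2B (-0.47 ± 0.09, adjusted p = 0.000174), followed by GRIA2 (-0.35, adjusted p = 0.000693) and GRIA1 (-0.25, adjusted p = 0.000917), with a median of -0.35. Over all rows, 24.3% were called lower. With the array median as a covariate the calls of GRIN2B, GRIA2 and GRIA1 were lost, and that of GRIA1 also without centring. Of potassium channel genes, 2 of 7 were higher, KCNK10 by 0.42 (adjusted p = 0.0141) and KCNK5 by 0.41 (adjusted p = 0.0262), and none lower. KCNK10 was at -0.52 at 7 d and 0.19 at 14 d, and KCNK5 at 0.87 and 1.62, so that their 7 d means lay below the 3 h mean of KCNK10 (-0.23) and the 1 h mean of KCNK5 (1.19). Both calls were lost with the title letter, that of KCNK5 also without 7 d replicate 6, and both differences turned negative on deposited values with the array median as a covariate.

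Of the growth factor and vessel genes, 2 of 12 were higher and 2 lower. IGF2, a growth factor, was higher by 0.37 ± 0.05 (SE, limma adjusted p = 2.71e-06), with singing birds between 0.99 and 1.68 (median 1.18) and non-singing birds between 0.64 and 1.13 (median 0.86). VEGFC was higher by 0.24 (adjusted p = 0.00251), with -0.93 at 14 d but -1.32 at 7 d, below the 1 h mean of -1.24, and the receptor gene IGF1R (-0.65, adjusted p = 0.00015) and NRG1 (-0.50, adjusted p = 0.00175) were lower. Activity-dependent genes other than those left out by the rule were mixed: DUSP5 (0.20, adjusted p = 0.00096) and GADD45G (0.23, adjusted p = 0.0273) were higher and JUN (-0.40, adjusted p = 0.000292) lower, of 4 measured. The call of GADD45G was lost without 14 d replicate 2 or 3. Of 3 neuropeptide and granin genes, SCG3 was higher by 0.23 (adjusted p = 0.00029) and CHGA lower by a log2 difference of -0.28 (adjusted p = 0.0173).

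Of 10 chaperone genes, 1 was higher, HSPH1 by 0.15 (limma adjusted p = 0.0186), and 3 were lower, HSP90B1 (-0.36, adjusted p = 0.000268), CCT5 (-0.32, adjusted p = 0.0011) and HSP90AA1 (-0.16, adjusted p = 0.0298). The call of HSP90AA1 was lost without 14 d replicate 2 or 7 d replicate 5 or 6. No gene of the respiratory chain was called, of 5 measured, and 0 had an unadjusted p under 0.05, while 1 of 3 genes of the GABA system was lower, the receptor subunit GABRD (-0.58, adjusted p = 0.000125).

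Markers of other cells in the tissue were counted in the same contrast. Of 6 neuron markers besides NEFM, 0 were called higher and 2 lower, ELAVL4 (-0.28, limma adjusted p = 0.000567) and the dim UCHL1 (-1.14, adjusted p = 0.0149). Astrocyte markers were called in neither direction (0 of 3), nor were those of red blood cells (TAL1), endothelium (FLT1) and the choroid plexus (0 of 4). At an unadjusted p under 0.05 there were 2 of the astrocyte markers and none of the other 3 lists. Of 2 oligodendrocyte markers, 1 was called higher, CLDN11 by 0.18 (limma adjusted p = 0.00434), and 1 lower. Of 3 markers of the meninges only IGF2 was called, higher. DCN differed by -0.25 (limma adjusted p = 0.0879) and FOXC2 by 0.07 (adjusted p = 0.465). Of 3 markers of young neurons DLX2 was higher by 0.17 (adjusted p = 0.0138) and DLX1 lower (-0.29, adjusted p = 0.0281). The call of DLX1 was lost without 14 d replicate 1 or 2 or 7 d replicate 2. Averaged over each list, the neuron markers ran from 0.78 to 1.45 in controls, 0.47 to 1.34 at 7 d and 0.32 to 1.00 at 14 d. In the same groups FLT1 ran from -1.69 to -1.23, -1.47 to -1.15 and -1.82 to -1.36. The part of cell composition in the members' levels was not tested.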

How the data were processed

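RNA of HVC from 39 birds was measured on Affymetrix arrays. The deposited values are log2 levels made by the authors, 1 per row and array; the submitters' processing notes list affy and Affymetrix Expression Console, and their versions and the summarising and normalising are not given in the sources used here. That the values are log2 follows from their range (0.77 to 14.1). Array number limits the precision.

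Each array was centred on its median. Group means over 38 arrays, without 3 h replicate 2, gave the score and members, with 150 rows taken before exclusion. A model with 7 group means was fitted in limma 3.58.1 (lmFit, eBayes; R 4.3.3), with Benjamini-Hochberg adjustment over 26061 rows; calls had an adjusted p under 0.05 and intervals are 95%. Contrasts were singing against other groups, 14 d against 7 d, any difference among non-singing groups, and 3 d against control. Python 3.11.15 made the tables (pandas 2.3.3) and figures (matplotlib 3.10.9).

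RefSeq accessions, without versions, were matched to the zebra finch assembly bTaeGut7.mat; 2471 of 26061 rows matched. Ensembl and GenBank rows keep their identifiers. Named were all members with an official symbol, the 2 unnamed members with the highest score, and, of each list with at least 3 measured genes and a call, up to 4 non-members with the smallest adjusted p; rows named beyond that were chosen after their values were seen. Members and gene lists were chosen with earlier results of these data known. The 3 rows of excluded genes were left out by the rule. Some genes of the marker and pathway lists are not reported here.

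Alternatives were uncentred and quantile-normalised values, all arrays, no dim rows, group medians, each array left out, other moderation, title letter, replicate number as a block, the array median as a covariate, a stricter threshold and fits of only the compared groups. In data simulated for 14 d against 7 d over 26061 rows, 66.7% of 69 planted differences of 0.5 (log2), 93.4% of 76 of 1 and 100% of 55 of 2 were recovered. The simulated noise was independent between rows, with no shift shared across an array, so these shares need not hold for the measured arrays. The selection found 100% of 100 rows planted higher by 2 (log2) in both singing groups. That size is above the largest difference of a member, 1.73, and recovery of smaller ones by the selection was not simulated. Same-numbered birds of different groups did not deviate together: over 105 pairs the median correlation was 0.01 (-0.70 to 0.39), against 0.00 over 512 other pairs. The labels give no other pairing.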

Additional observations from a re-analysis of the deposited data

Results flagged for a closer look

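In 5 of 105 groups of values over the 15 named members, 1 bird lay far from the others of its group; chance marks about 1 in 20 groups. ZNF503 was at 0.234 in 7 d replicate 6, with the other 7 d birds between -0.222 and -0.102. PRUNE1 was at -1.783 in the same bird, with the others between -2.244 and -2.083. SRD5A2 was at -0.695 in 3 d replicate 3, with the others between -1.231 and -1.106. EMCN was at -2.77 in 1 h replicate 6, with the others between -1.74 and -1.287. CRYL1 was at 0.552 in control replicate 2, with the others between 0.02 and 0.166.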

How the results depend on the processing

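Of the 147 members, 79 were chosen again from deposited values without centring, 96 from group medians, 103 with all arrays, 105 after quantile normalisation, 114 without the dimmest 25% of rows and 111 (without 7 d replicate 6) to 144 with each array left out. Of the 15 named members, 6 were not chosen again without centring: ZNF503, VCL, PRUNE1, ADRA1A, CRYL1 and CMPK1. After quantile normalisation 5 were not: EMCN, CCND1, CRYL1, IRF4 and CMPK1. With all arrays 4 were not: SRD5A2, PRUNE1, ADRA1A and CMPK1. From group medians 5 were not: HTR2B, PRUNE1, CCND1, CRYL1 and CMPK1. Leaving out 1 h replicate 4 or 7 d replicate 6 lost 5 named members each. Scores fell below 0 for PRUNE1 (-0.058, group medians) and ADRA1A (-0.055, all arrays). Rows called in the singing contrast numbered 12164, against 7740 at adjusted p under 0.01 and 2936 when the array median was a covariate, and 9851 to 13127 with an array left out. The centred split of 5831 higher and 6333 lower became 10224 and 3531 without centring and 7155 and 5256 after quantile normalisation. For 14 d against 7 d, 5619 rows were called, 1834 at 0.01, 2883 with all arrays, 1148 with the covariate and 2663 (without 7 d replicate 4) to 9089 (without 7 d replicate 6), with 3149 without 7 d replicate 5 and 3153 without 14 d replicate 2. The split of 3022 higher and 2597 lower became 4901 and 1307 without centring. Members called ranged from 1 to 7. HAS2 passed without 14 d replicate 4 (-0.952) and without 7 d replicate 3 (-0.911); the other 14 named members were called under none of these settings. For the non-singing groups, 10605 rows were called, 5446 at 0.01, 4916 with the title letter and 8839 to 13871 with an array left out. CRYL1 missed the threshold only with the covariate, and VCL, IRF4 and CMPK1 each in 6 to 8 of 48 alternatives. For 3 d against control, 696 rows were called, 161 at 0.01, 230 with all arrays, 416 with the title letter, 2060 with the covariate, 251 in a fit of the 2 groups and 313 (without control replicate 1) to 947 with an array left out, with 394, 383, 403, 390 and 356 without control replicates 2 and 3 and 3 d replicates 1, 3 and 4. KCNK10 (-0.129), KCNK5 (-0.062) and HSP90AA1 (0.007) changed sign with the covariate. Of the 30 genes outside the members that were followed through these settings, CLDN11 and BIRC5 not among them, 24 lost their call with the covariate, 10 at 0.01, 7 with the title letter, 6 without centring and 6 with all arrays. The causes were not tested.

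Replicate numbers did not pair the birds. With them as a replicate block, 11586, 5599, 10474 and 668 rows were called in the 4 contrasts, and 141, 2, 36 and 4 members.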
